A study of Mus musculus with 12 samples.

Results

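The genes described here are a list of 39 mouse genes that answer to interferon, matched to the deposited data by gene symbol. Of the 39, 38 had values, out of 13207 genes in the deposited data, and Mx1 is not analysed here. The lowest level of any listed gene in any library corresponded to 80 counts, well above the detection limit. The libraries are RNA sequencing of CD4+ thymocytes from C57BL/6 mice killed 7 days after an injection of tamoxifen at 10 μg per g of body weight, which every group received. In these mice GFP marks the cells sorted as regulatory T cells (Treg), and tdTomato marks cells labelled by the tamoxifen pulse. The alleles that carry the reporters and the promoter that drives the recombinase are not given in the sources used here, which limits what the pulse can be said to mark. Newly generated CD73+ Treg were sorted as tdTomato+GFP+CD73+ cells and newly generated CD73– Treg as tdTomato+GFP+CD73– cells. A bulk Treg population outside the labelled wave was sorted as tdTomato–GFP+ cells with no gate on CD73, and is called tdTomato– Treg here. Newly generated conventional T cells (Tconv) were sorted as tdTomato+GFP–CD73– cells. Each group had 3 libraries, named A, B and D by the letter in their titles, and values are listed in that order throughout. Whether the libraries of a group come from separate animals is not stated in the labels, and each p-value is set against the library-to-library spread alone, part of which may be technical.

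Interferons are cytokines that cells release on sensing viral nucleic acid. Type I interferon binds a receptor made of Ifnar1 and Ifnar2, the kinases Jak1 and Tyk2 then act on signal transducers that include Stat2, and a complex with Stat2 and Irf9 binds a DNA element called the interferon-stimulated response element (ISRE). Type II interferon, interferon gamma, acts through Ifngr1, Ifngr2, Jak1 and Jak2 and leads to binding at gamma-activated sites (GAS). The induced genes encode nucleic acid sensors, enzymes that degrade or edit viral RNA, GTPases that attack the vacuoles of intracellular microbes, and parts of antigen presentation. In the uninfected mouse thymus interferon is also made, and maturing thymocytes express interferon-stimulated genes.

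The promoters below are shown because the 2 kinds of element stand in them in different combinations. Windows of 300 bases, 250 before and 50 after a gene's start, came from RefSeq on GRCm38.p6 (the build also called mm10), and 31 of the 39 genes had one. Zbp1, Mx1, Oas2, Usp18, Rtp4, Dhx58, Parp9 and Parp14 had none. Both strands were searched for the ISRE core, which is GAAA, any 2 bases and GAAA again, and for the GAS core TTCNNNGAA, which is its own reverse complement. The printed stretches are the 250 bases before the RefSeq start, 5′ to 3′ along the gene, with matches to either core in capitals. Oas3, Gbp7, Oas1a and Rsad2 passed the threshold and hold an ISRE core in the printed stretch. Among such genes they had the smallest p in the comparison of tdTomato– Treg with Tconv. Igtp and Samhd1 were added after their values were seen, and a GAS core in the printed stretch was required of them. The printed set therefore cannot show how either core goes with the direction of a difference.
Oas3, chr5:120777660-120777909, minus strand: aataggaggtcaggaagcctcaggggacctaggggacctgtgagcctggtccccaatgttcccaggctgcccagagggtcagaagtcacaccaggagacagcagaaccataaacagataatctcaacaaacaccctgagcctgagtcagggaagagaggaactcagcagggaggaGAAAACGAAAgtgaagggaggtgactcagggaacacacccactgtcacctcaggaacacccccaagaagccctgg
Rsad2, chr12:26456453-26456702, minus strand: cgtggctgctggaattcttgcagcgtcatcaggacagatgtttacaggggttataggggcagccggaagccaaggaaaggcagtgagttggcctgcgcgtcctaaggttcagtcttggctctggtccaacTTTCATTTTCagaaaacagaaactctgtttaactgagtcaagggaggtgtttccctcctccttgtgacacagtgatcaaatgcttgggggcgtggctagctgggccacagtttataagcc
Oas1a, chr5:120907526-120907775, minus strand: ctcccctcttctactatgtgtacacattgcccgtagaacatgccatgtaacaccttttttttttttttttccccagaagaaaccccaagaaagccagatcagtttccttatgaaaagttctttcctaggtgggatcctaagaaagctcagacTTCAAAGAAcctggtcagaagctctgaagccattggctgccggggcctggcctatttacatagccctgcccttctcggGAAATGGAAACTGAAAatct
Gbp7, chr3:142530086-142530335, plus strand: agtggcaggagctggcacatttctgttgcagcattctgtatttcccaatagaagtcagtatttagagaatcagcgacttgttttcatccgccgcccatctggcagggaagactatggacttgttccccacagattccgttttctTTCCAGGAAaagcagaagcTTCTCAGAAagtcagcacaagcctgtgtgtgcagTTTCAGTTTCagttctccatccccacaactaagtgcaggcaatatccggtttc
Igtp, chr11:58199306-58199555, plus strand: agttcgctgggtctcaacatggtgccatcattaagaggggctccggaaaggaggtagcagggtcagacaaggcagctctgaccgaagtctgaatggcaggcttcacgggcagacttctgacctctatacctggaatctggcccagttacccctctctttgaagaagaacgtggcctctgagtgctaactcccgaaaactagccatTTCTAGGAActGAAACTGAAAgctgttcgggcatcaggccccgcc
Samhd1, chr2:157135097-157135346, minus strand: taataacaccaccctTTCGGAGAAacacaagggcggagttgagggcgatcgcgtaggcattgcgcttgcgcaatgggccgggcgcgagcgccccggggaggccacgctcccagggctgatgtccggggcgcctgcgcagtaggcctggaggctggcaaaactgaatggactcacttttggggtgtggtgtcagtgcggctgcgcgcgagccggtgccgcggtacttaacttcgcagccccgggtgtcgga

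Some genes have more than 1 window. The ISRE core stood in at least 1 window of 16 of the 31 genes (51.6%). Counted by window, it stood in 17 of their 39 (43.6%), against 3.44% of all 32851 RefSeq promoter windows. The GAS core stood in 10 of the 31 genes (32.3%) and in 10 of their 39 windows (25.6%), against 8.3% of all windows. Oas1a holds 2 ISRE matches, which overlap and share their middle GAAA in the capitals above, and 1 GAS match. Gbp7 holds 1 ISRE match, on the other strand, and 2 GAS matches. Igtp holds 1 of each. Oas3 and Rsad2 hold 1 ISRE match, in Rsad2 on the other strand, and no GAS match, and Samhd1 holds 1 GAS match and no ISRE match. A match is a description of letters, not a binding site, and a missing match says only that these letters are not in this window.

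The 12 libraries had an effective depth of 11000000 to 21400000 counts, read from the level of genes without a count. Foxp3, the lineage factor of Treg, averaged 9.19, 9.16 and 9.11 in CD73+, CD73– and tdTomato– Treg, against 0.18 in Tconv, on the log2 scale of read counts scaled to a common library size (CPM). The CD73 gene Nt5e averaged 7.29 in CD73+ Treg, against 5.54 in CD73– Treg, and 8.21 in tdTomato– Treg, against 3.88 in Tconv. The CD73+ and CD73– Treg libraries were normalised by the authors in one table and the tdTomato– Treg and Tconv libraries in another, so tests were made only within a table. Genes were called higher or lower at an adjusted p under 0.05 in a limma fit over all genes, adjusted by Benjamini-Hochberg.

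**Figure D1:**
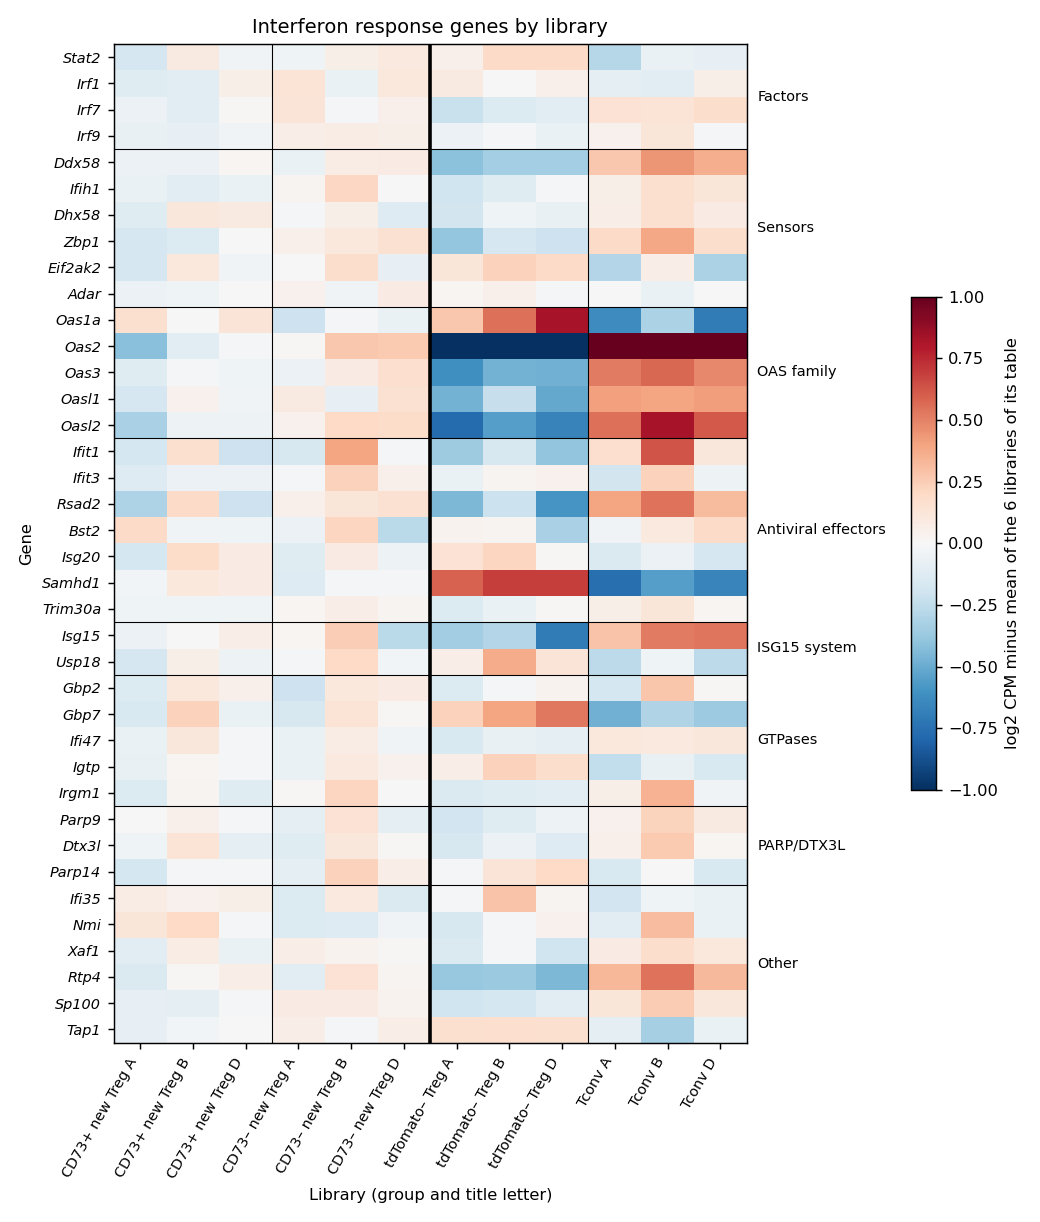
Level of each of the 38 interferon response genes (rows, grouped by role) in each of the 12 libraries (columns). Colour gives the difference in log2 CPM from the gene's mean over the 6 libraries of the same table, on a scale ending at 1 in both directions. Colours therefore do not compare levels between the 2 tables. The Oas2 row passes the end of the scale in tdTomato– Treg and in Tconv, and the CD73+ and CD73– columns differ little beside the other pair; the 2 pairs of groups were normalised separately.

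The first comparison asks how the interferon response genes of Treg outside the labelled wave differed from those of newly made Tconv. Of the 38 genes, 28 passed the threshold (73.7%), against 52.1% of all 11198 genes tested. In tdTomato– Treg 19 of the 38 were lower, against 25.7% of all genes, and 9 were higher (23.7%), against 26.4% of all genes. Without the 4 libraries of letter A, 12 were lower, against 19% of all genes in that fit. The share of higher genes was near the background, and the share of lower genes was above it in both fits. The median log2 fold change was −0.19 over the 38 genes and −0.01 over all genes. Libraries of the groups did not overlap for 20 lower and 10 higher genes, and such genes made up 30.5% of all genes in each direction. The difference was negative under all 3 letters for 21 genes, against 36.4% of all genes, and positive under all 3 for 11, against 35.4%. The fold change was below 0 for 24 of the 38, against 50.5% of all genes. At an adjusted p under 0.05 the authors' deposited table has 10 of the 38 higher and 18 lower, against 50.6% of its genes past that level. The groups differ in lineage, in labelling and in the CD73 gate, and the part of each in a difference cannot be told apart. In bulk libraries, fewer cells with a transcript and less of it per cell cannot be told apart either.

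Among the transcription factors that carry the signal, 1 was higher, 1 was lower and 2 did not pass the threshold. Beside this and the later counts by role, 26.4% of all genes were higher and 25.7% lower. Counts within a role of few genes are therefore a description alone. Stat2, a transducer of type I interferon signals, had log2 CPM of 6.18, 6.32 and 6.32 in tdTomato– Treg, against 5.84, 6.06 and 6.05 in Tconv. All 3 tdTomato– Treg libraries lay above all Tconv libraries, and the log2 fold change was 0.29 (SE 0.08, adjusted p = 0.00471). Irf7, which amplifies type I interferon production, had 6.09, 6.18 and 6.21 in tdTomato– Treg, against 6.46, 6.45 and 6.49 in Tconv, a log2 fold change of −0.31 (SE 0.06, adjusted p = 0.000264). Irf9, the DNA-binding subunit that joins Stat2, had 7.09, 7.13 and 7.08 in tdTomato– Treg, against 7.19, 7.27 and 7.13 in Tconv (adjusted p = 0.102). Irf1, a transcription factor induced by interferon gamma, had 7.38, 7.29 and 7.34 in tdTomato– Treg, against 7.19, 7.18 and 7.35 in Tconv (adjusted p = 0.241). For Irf9 and Irf1 the groups overlapped. Irf9 shares exon sequence with Rnf31 and Irf7 overlaps Phrf1 on the opposite strand, and how the authors counted such reads is not stated.

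The oligoadenylate synthetase family held the lowest fold change of the list. These enzymes make short adenylate chains that switch on the nuclease RNase L, and the Oasl proteins are relatives of which mouse Oasl1 restrains translation of Irf7. All 5 measured members passed the threshold, 4 lower and 1 higher, against 25.7% of all genes lower and 26.4% higher. Oas2 had log2 CPM of 2.56, 2.90 and 2.81 in tdTomato– Treg, against 5.75, 5.70 and 5.77 in Tconv. It was 7.91-fold lower in tdTomato– Treg (−2.98 in log2 units, SE 0.13, adjusted p = 4.19e-12), and no library of either group came near the other. Oasl2 had 3.89, 4.11 and 3.99 in tdTomato– Treg, against 5.21, 5.48 and 5.27 in Tconv, a log2 fold change of −1.32 (SE 0.10, adjusted p = 9.59e-09). Oas3 had 4.62, 4.76 and 4.75 in tdTomato– Treg, against 5.75, 5.81 and 5.71 in Tconv, a log2 fold change of −1.05 (SE 0.08, adjusted p = 6.13e-09). Oasl1 had 2.65, 2.89 and 2.61 in tdTomato– Treg, against 3.53, 3.52 and 3.54 in Tconv, a log2 fold change of −0.81 (SE 0.12, adjusted p = 3.41e-05). Each of these genes was separated between the groups without overlap. Oas1a moved the other way, with 3.57, 3.85 and 4.12 in tdTomato– Treg, against 2.67, 2.98 and 2.60 in Tconv. It was 2.14-fold higher in tdTomato– Treg (1.10 on the log2 scale, SE 0.15, adjusted p = 1.2e-05), although near-identical paralogs of Oas1a can share its reads.

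The opposite moves lie in one stretch of chromosome 5 (GRCm38, GENCODE M21 annotation). Oas2 lies on the minus strand at chr5:120730333-120749853, Oas3 at chr5:120753098-120777661, 3.2 kb away, and Oas1a at chr5:120896256-120907521, 118.6 kb from Oas3. Oasl2 and Oasl1, which were both lower, are neighbours 11.0 kb apart on the same chromosome. Calls also differed between other neighbours. Dtx3l was lower and Parp14 higher, 55.0 kb apart, but each lost its call when some single libraries were left out, and the groups overlapped for Parp14. Gbp7 was higher and Gbp2, 70.5 kb away, was not past the threshold. Ifit1 was lower while Ifit3, 52.1 kb away, was not past it. The Gbp and Ifit pairs differ in call only, which does not show opposite directions.

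**Figure D2:**
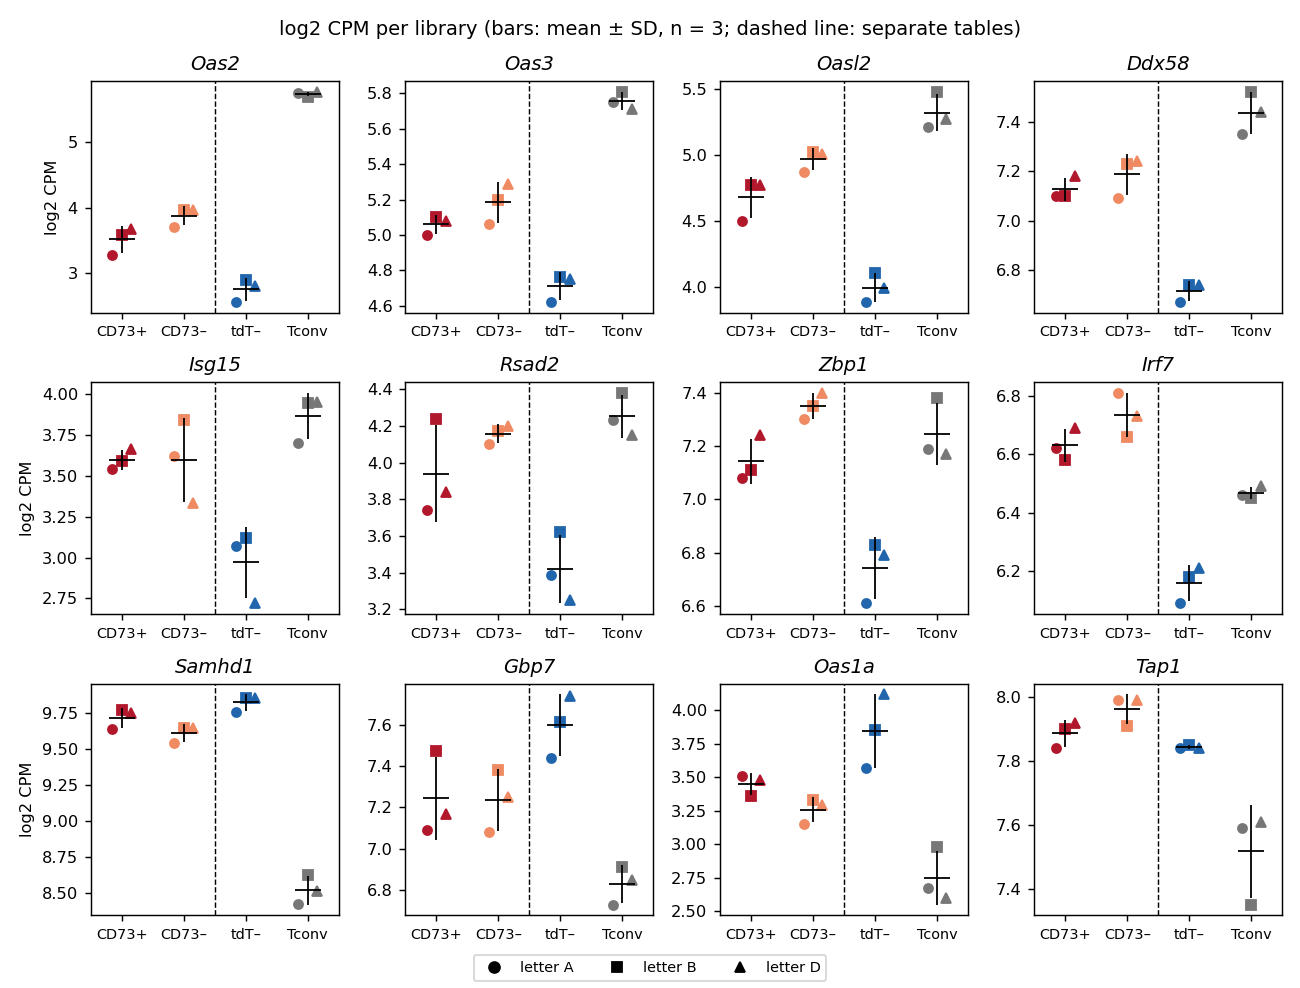
Log2 CPM in every library for 12 interferon response genes, with the symbol giving the letter and bars giving the mean and SD of a group (n = 3). The dashed line parts the pairs of groups that were normalised separately. The tdTomato– Treg points for Oas2 lie between 2.56 and 2.90, far under the Tconv points at 5.70 to 5.77, while those for Samhd1 lie above all Tconv points.

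Of the 6 sensors and nucleic acid enzymes, 3 were lower, 1 was higher and 2 did not pass the threshold. Ddx58 (RIG-I), a cytosolic sensor of viral RNA, had log2 CPM of 6.67, 6.74 and 6.74 in tdTomato– Treg, against 7.35, 7.52 and 7.44 in Tconv, a log2 fold change of −0.72 (SE 0.06, adjusted p = 1.72e-08). Zbp1, which senses left-handed nucleic acid and can start cell death, had 6.61, 6.83 and 6.79 in tdTomato– Treg, against 7.19, 7.38 and 7.17 in Tconv, a log2 fold change of −0.50 (SE 0.07, adjusted p = 1.27e-05). Both genes were separated without overlap. Ifih1 (MDA5), the sensor of long double-stranded RNA, had 6.03, 6.11 and 6.21 in tdTomato– Treg, against 6.29, 6.39 and 6.35 in Tconv, a log2 fold change of −0.23 (SE 0.06, adjusted p = 0.00765). Without tdTomato– Treg library A its adjusted p was 0.0502. Eif2ak2 (PKR), the kinase that stops translation on binding double-stranded RNA, had 6.14, 6.25 and 6.21 in tdTomato– Treg, against 5.73, 6.09 and 5.70 in Tconv. Its log2 fold change was 0.36 (SE 0.10, adjusted p = 0.00539), with an adjusted p of 0.0513 without the libraries of letter A and 0.0851 without those of letter D. Dhx58, a regulator of the RNA sensors, had a log2 fold change of −0.21 (adjusted p = 0.0586), and Adar, which edits double-stranded RNA, had 0.04 (adjusted p = 0.457).

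The 7 antiviral effectors split into 3 lower, 1 higher and 3 not past the threshold. The share past it, 57.1%, was near the 52.1% of all genes. Samhd1, a hydrolase that empties the pool of deoxynucleotides, had log2 CPM of 9.76, 9.86 and 9.86 in tdTomato– Treg, against 8.42, 8.62 and 8.51 in Tconv. It was 2.48-fold higher in tdTomato– Treg (1.31 on the log2 scale, SE 0.06, adjusted p = 5.72e-12), the highest fold change of the 38 genes. Rsad2 (viperin), which makes a chain-terminating nucleotide, had 3.39, 3.62 and 3.25 in tdTomato– Treg, against 4.23, 4.38 and 4.15 in Tconv, a log2 fold change of −0.83 (SE 0.13, adjusted p = 6.33e-05). Ifit1, which binds foreign RNA by its end, had 5.53, 5.73 and 5.49 in tdTomato– Treg, against 6.06, 6.52 and 6.00 in Tconv, a log2 fold change of −0.61 (SE 0.14, adjusted p = 0.00195). All 3 of these genes were separated between groups, upward for Samhd1 and downward for Rsad2 and Ifit1. Trim30a, a tripartite-motif protein, had 7.16, 7.23 and 7.31 in tdTomato– Treg, against 7.36, 7.42 and 7.32 in Tconv, a log2 fold change of −0.13 (SE 0.05, adjusted p = 0.0318). The nearest libraries of the groups stood at 7.31 and 7.32, and the adjusted p was 0.17 without tdTomato– Treg library A, 0.0774 without tdTomato– Treg library B, 0.0611 without Tconv library A and 0.103 without Tconv library B. Bst2 (tetherin), Isg20 and Ifit3 had log2 fold changes of −0.17, 0.25 and 0.00 and did not pass the threshold. Without tdTomato– Treg library D, Isg20 passed it, at an adjusted p of 0.0493. Close copies, Ifit3b for Ifit3 and the Trim30 family for Trim30a, make these counts uncertain.

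The ISG15 system moved in both directions. Isg15, a ubiquitin-like modifier, had log2 CPM of 3.07, 3.12 and 2.72 in tdTomato– Treg, against 3.70, 3.94 and 3.95 in Tconv, a log2 fold change of −0.89 (SE 0.15, adjusted p = 8.36e-05). Usp18, the protease that removes Isg15 and also blocks signalling at Ifnar2, had 4.89, 5.19 and 4.95 in tdTomato– Treg, against 4.56, 4.78 and 4.56 in Tconv, a log2 fold change of 0.38 (SE 0.10, adjusted p = 0.00501). For both genes the groups did not overlap.

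Among the guanylate-binding proteins and immunity-related GTPases, which coat and break the vacuoles of intracellular microbes, 2 were higher and 2 were lower. Gbp7 had log2 CPM of 7.44, 7.61 and 7.74 in tdTomato– Treg, against 6.73, 6.91 and 6.85 in Tconv, a log2 fold change of 0.77 (SE 0.10, adjusted p = 4.91e-06). Igtp (Irgm3) had 7.03, 7.19 and 7.14 in tdTomato– Treg, against 6.72, 6.89 and 6.81 in Tconv, a log2 fold change of 0.31 (SE 0.06, adjusted p = 0.00038). Both sets of tdTomato– Treg libraries lay above every Tconv library. Ifi47 had 7.14, 7.22 and 7.20 in tdTomato– Treg, against 7.40, 7.39 and 7.41 in Tconv, a log2 fold change of −0.21 (SE 0.06, adjusted p = 0.00382). Irgm1, which protects the cell's own membranes from these GTPases, had 6.50, 6.52 and 6.54 in tdTomato– Treg, against 6.70, 6.99 and 6.61 in Tconv, a log2 fold change of −0.25 (SE 0.08, adjusted p = 0.0217). Its call rested on single libraries, with an adjusted p of 0.0607 without tdTomato– Treg library A, 0.0516 without tdTomato– Treg library B and 0.133 without Tconv library B. Gbp2 had a log2 fold change of −0.08 (adjusted p = 0.583). Igtp shares exon sequence with Irgm2, and Ifi47 with Olfr56, on the same strand.

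The ADP-ribosylation genes had smaller differences. Parp9, which pairs with the ubiquitin ligase Dtx3l, had log2 CPM of 6.55, 6.62 and 6.69 in tdTomato– Treg, against 6.78, 6.96 and 6.83 in Tconv, a log2 fold change of −0.24 (SE 0.07, adjusted p = 0.00833). Dtx3l itself had 7.69, 7.79 and 7.72 in tdTomato– Treg, against 7.90, 8.11 and 7.87 in Tconv, a log2 fold change of −0.23 (SE 0.07, adjusted p = 0.0177). Its adjusted p was 0.0637 without tdTomato– Treg library A and 0.0961 without Tconv library B. The pair overlap by 682 bases on opposite strands, and since no source used here gives the strand setting of the counting, their reads cannot be told apart there. Parp14, a large mono-ADP-ribosyltransferase, had 8.34, 8.49 and 8.56 in tdTomato– Treg, against 8.21, 8.37 and 8.21 in Tconv, a log2 fold change of 0.20 (SE 0.08, adjusted p = 0.0396). Its groups overlapped, and its adjusted p was 0.102 without tdTomato– Treg library B, 0.159 without tdTomato– Treg library D, 0.117 without Tconv library A and 0.118 without Tconv library D.

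Of the 6 remaining genes, 3 were lower, 1 was higher and 2 did not pass the threshold. Rtp4, an interferon-induced transmembrane protein, had log2 CPM of 4.96, 4.97 and 4.89 in tdTomato– Treg, against 5.67, 5.88 and 5.66 in Tconv, a log2 fold change of −0.80 (SE 0.09, adjusted p = 6.31e-07). Sp100, a nuclear body protein, had 8.75, 8.77 and 8.83 in tdTomato– Treg, against 9.07, 9.20 and 9.06 in Tconv, a log2 fold change of −0.33 (SE 0.05, adjusted p = 2.11e-05). Xaf1, a pro-apoptotic factor, had 5.39, 5.51 and 5.33 in tdTomato– Treg, against 5.61, 5.71 and 5.64 in Tconv, a log2 fold change of −0.24 (SE 0.07, adjusted p = 0.00694). Each was lower without overlap, although the adjusted p of Xaf1 was 0.0516 without the libraries of letter A and 0.0978 without those of letter D. Tap1, a subunit of the peptide transporter that loads class I molecules, had 7.84, 7.85 and 7.84 in tdTomato– Treg, against 7.59, 7.35 and 7.61 in Tconv, a log2 fold change of 0.33 (SE 0.06, adjusted p = 0.000235). Tap1 overlaps Psmb9 on the opposite strand. Ifi35 and Nmi, which bind each other, had log2 fold changes of 0.20 (adjusted p = 0.081) and −0.09 (adjusted p = 0.532).

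**Figure D3:**
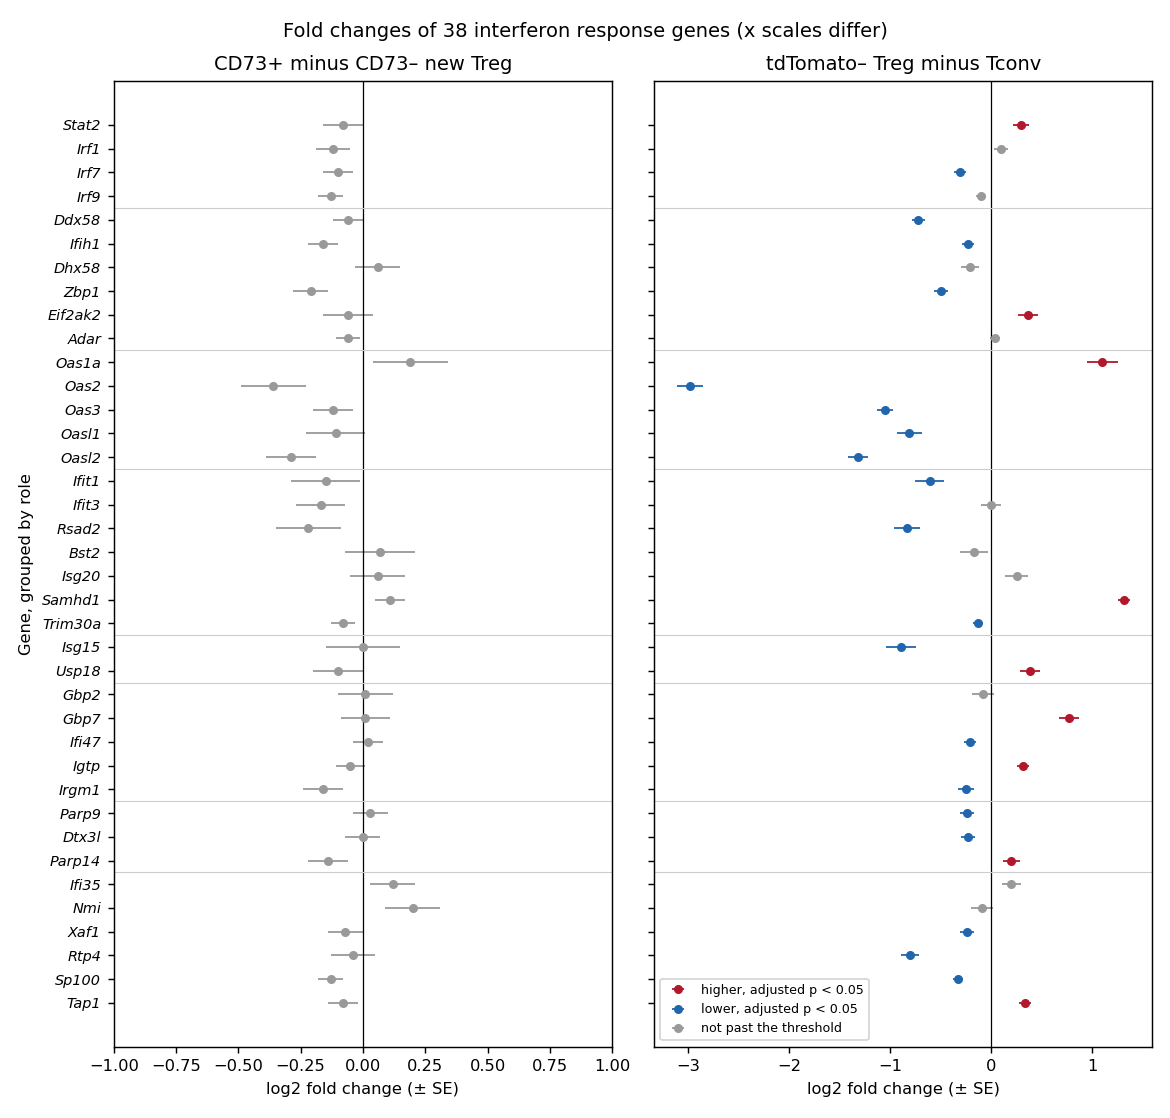
Log2 fold change of each of the 38 interferon response genes with its standard error (bars), for CD73+ minus CD73– Treg (left) and tdTomato– Treg minus Tconv (right, on a wider scale), grouped by role and coloured by call. In the comparison with Tconv values run from −2.98 (Oas2) to 1.31 (Samhd1), and between CD73+ and CD73– Treg from −0.36 (Oas2) to 0.20 (Nmi).

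Set beside the promoters, the genes of either direction held the ISRE core. Among genes with a window it stood in 5 of the 7 higher in tdTomato– Treg, 8 of the 15 lower and 3 of the 9 not past the threshold. The GAS core stood in 5 of the 7 higher genes (Samhd1, Gbp7, Oas1a, Igtp and Eif2ak2), in 0 of the 15 lower genes and in 5 of the 9 not past the threshold (Adar, Bst2, Ifi35, Irf1 and Isg20). These are counts over few genes with no test, made after the calls were known.

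The second comparison asks how newly made CD73+ Treg differed from newly made CD73– Treg. None of the 38 genes passed the threshold in the limma fit, against 2.44% of all 11170 genes tested (1.79% higher and 0.654% lower). None passed an adjusted p of 0.05 in the authors' deposited table either, against 1.19% of its genes. At an unadjusted p under 0.05 there were 6 of the 38, all lower in CD73+ Treg (Zbp1, Oas2, Oasl2, Sp100, Irf9 and Ifih1), against 17.2% of all genes in either direction and 7.5% lower at that level. The median log2 fold change was −0.08 over the list and 0.01 over all genes, and 25 of the 38 were below 0, against 48.3% of all genes. The difference was negative under all 3 letters for 18 of the 38, against 19.5% of all genes, and positive under all 3 for 3, against 20.4%. Groups did not overlap for 8 genes with CD73+ Treg below, against 8.18% of all genes, and for 2 with CD73+ Treg above, against 10%. The libraries of a letter deviated together in these 2 groups. With the letter as a block, 2 genes passed the threshold, both lower. In that fit 5.64% of all genes passed, 3.32% higher and 2.32% lower.

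The block called Zbp1 and Oasl2. Zbp1 had log2 CPM of 7.08, 7.11 and 7.24 in CD73+ Treg, against 7.30, 7.35 and 7.40 in CD73– Treg. All CD73+ libraries lay below all CD73– libraries, and the log2 fold change was −0.21 (SE 0.07, adjusted p = 0.138, with the replicate block 0.0399). Oasl2 had 4.50, 4.77 and 4.77 in CD73+ Treg, against 4.87, 5.02 and 5.01 in CD73– Treg, a log2 fold change of −0.29 (SE 0.10, adjusted p = 0.149, with the replicate block 0.0452). Oas2 had 3.28, 3.59 and 3.68 in CD73+ Treg, against 3.71, 3.97 and 3.96 in CD73– Treg. Its log2 fold change of −0.36 was the lowest of the list (SE 0.13, adjusted p = 0.146, with the replicate block 0.057), with CD73+ libraries below CD73– libraries by a narrow gap. Nmi and Oas1a had the highest fold changes. Nmi had 4.70, 4.78 and 4.56 in CD73+ Treg, against 4.44, 4.45 and 4.54 in CD73– Treg, a log2 fold change of 0.20 (SE 0.11, adjusted p = 0.357). Oas1a had 3.51, 3.36 and 3.48 in CD73+ Treg, against 3.15, 3.33 and 3.29 in CD73– Treg, a log2 fold change of 0.19 (SE 0.15, adjusted p = 0.547). Neither pair of groups overlapped, but neither gene passed the threshold, which does not show that the groups are alike.

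The transcription factors were all nearer to 0. Stat2 had log2 CPM of 6.34, 6.60 and 6.48 in CD73+ Treg, against 6.47, 6.57 and 6.61 in CD73– Treg, a log2 fold change of −0.08 (SE 0.08, adjusted p = 0.658). Irf1 had 7.35, 7.36 and 7.53 in CD73+ Treg, against 7.61, 7.41 and 7.58 in CD73– Treg, a log2 fold change of −0.12 (SE 0.07, adjusted p = 0.374). Irf7 had 6.62, 6.58 and 6.69 in CD73+ Treg, against 6.81, 6.66 and 6.73 in CD73– Treg, a log2 fold change of −0.10 (SE 0.06, adjusted p = 0.373). These 3 overlapped between groups. Irf9 did not overlap, with 7.35, 7.34 and 7.39 in CD73+ Treg, against 7.49, 7.50 and 7.48 in CD73– Treg, a log2 fold change of −0.13 (SE 0.05, adjusted p = 0.168). Samhd1, Gbp7 and Isg15, which passed the threshold in the comparison with Tconv, had log2 fold changes of 0.11, 0.01 and 0.00 between CD73+ and CD73– Treg.

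Across the 4 groups, with the caution that the tables were normalised separately and no test crosses them, tdTomato– Treg had or shared the lowest mean level for 23 of the 38 genes. The 23 count Ifit3, whose means in tdTomato– Treg and Tconv were equal. The matching share over all genes was not computed, so the count is a description alone. No order of the means stood clearly ahead. In 8 genes it ran upward through Tconv, tdTomato– Treg, CD73+ Treg and CD73– Treg. In 9 genes it ran upward through tdTomato– Treg, CD73+ Treg, CD73– Treg and Tconv, with Oas2, Oasl2 and Oas3 among them. These 9 count Isg15, whose means in CD73+ and CD73– Treg were equal. Oas2 averaged 2.76 ± 0.18, 3.52 ± 0.21, 3.88 ± 0.15 and 5.74 ± 0.04 log2 CPM in the order from tdTomato– Treg to Tconv (SD, n = 3 each). In that order the CD73+ and CD73– Treg steps did not differ at the threshold, and the steps across the tables were not tested. Samhd1 averaged 9.83 ± 0.06 in tdTomato– Treg, 9.72 ± 0.07 in CD73+ Treg, 9.61 ± 0.06 in CD73– Treg and 8.52 ± 0.10 in Tconv.

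The machinery of the pathway, from lists of genes outside the 39, was also compared between tdTomato– Treg and Tconv, where 26.4% of all genes were higher and 25.7% lower. Of 8 receptor and kinase genes tested, 5 were higher and 3 lower. Ifngr1, the ligand-binding chain of the interferon gamma receptor, had log2 CPM of 7.93, 7.91 and 7.90 in tdTomato– Treg, against 5.91, 5.70 and 5.71 in Tconv, a log2 fold change of 2.14 (SE 0.07, adjusted p = 8.89e-14). Ifngr2, the signalling chain of the same receptor, had 5.59, 5.44 and 5.46 in tdTomato– Treg, against 6.17, 6.10 and 6.12 in Tconv, a log2 fold change of −0.63 (SE 0.07, adjusted p = 4.82e-07). The chains of one receptor thus differed in opposite directions, each without overlap. The other higher genes were Il10rb (1.63), Tyk2 (0.60), Ifnar2 (0.56) and Ifnar1 (0.32). The other lower genes were Jak1 (−0.30) and Jak2 (−0.14), and Jak2 lost its call without tdTomato– Treg library A or B or Tconv library B or D, at adjusted p from 0.0648 to 0.179. Of the signal factors and inhibitors, 7 of 12 were higher, among them Irf8 (2.65), Socs3 (2.07), Stat3 (0.94) and Irf5 (4.99), and 2 were lower, Ptpn6 (−0.83) and Ptpn2 (−0.36). Irf5 had log2 CPM of 3.65, 3.96 and 4.15 in tdTomato– Treg, against −1.67, −0.77 and −0.77 in Tconv. In the Tconv libraries 3 counts correspond to −2.32, −2.61 and −2.36, so the size of the Irf5 fold change is uncertain. Socs3 is a feedback inhibitor of cytokine signalling, and Ptpn6 and Ptpn2 are phosphatases.

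Of 11 adaptors and further sensors, 6 were higher in tdTomato– Treg, against 26.4% of all genes, and 5 did not pass the threshold. The 6 include Ikbke, which lost its call without tdTomato– Treg library B or D or Tconv library A or B, at adjusted p from 0.0554 to 0.166. The higher genes include Tmem173 (STING, 0.92), Aim2 (1.65) and Trex1 (2.79), which handle cytosolic DNA. Tlr9 had log2 CPM of 0.44, 1.16 and 1.14 in tdTomato– Treg, against −3.55, −2.61 and −2.36 in Tconv, where its values stand near the level of 3 counts, so no fold is given. Of 13 class I presentation genes, 8 were higher, led by H2-K1 (0.89), H2-D1 (0.75), Tapbpl (0.94) and Nlrc5 (0.42), and Erap1 was lower (−0.52). Among the 8, Psmb9 lost its call without any library but tdTomato– Treg library D, at adjusted p from 0.0516 to 0.198. Tap2 lost its call without library B of either group, at adjusted p of 0.09 and 0.099. The further interferon-stimulated genes, 74 tested, split into 31 higher and 27 lower, against 26.4% of all genes higher and 25.7% lower. Gbp3 (3.68), Ly6e (1.15), Gbp5 (2.03) and Apol9b (2.66) were the higher genes with the smallest p, and Slfn1 (−0.99), Lgals3bp (−0.61), Gbp4 (−0.46) and Gbp9 (−0.45) the lower ones. Among the interferons themselves Ifng was the single ligand with values, at 0.44, 0.18 and 1.24 in tdTomato– Treg, against −2.32, −1.96 and −2.0 in Tconv. The Tconv values stand near the level of 3 counts, so no fold is given.

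**Figure D4:**
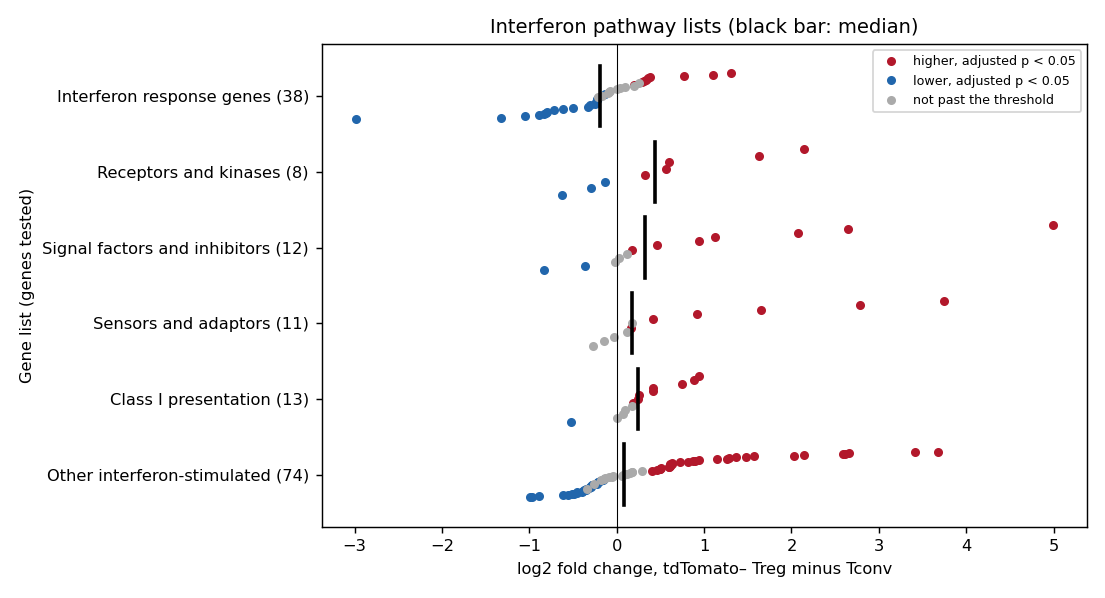
Log2 fold change of each gene in the interferon response list and in the further pathway lists, for tdTomato– Treg minus Tconv, with each point a gene, colour giving the call and a black bar at the list's median. The medians of the receptor, signal factor, adaptor and class I lists are 0.44, 0.32, 0.18 and 0.24, that of the 74 further interferon-stimulated genes is 0.08, and that of the 38 interferon response genes is −0.19.

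Between CD73+ and CD73– Treg the same lists gave few calls. In the limma fit 0 of 8 receptor and kinase genes, 0 of 12 signal factors and 0 of 13 class I genes passed the threshold, with 1, 3 and 3 of them at an unadjusted p under 0.05. Of all genes 2.44% passed the threshold, and 17.2% had an unadjusted p under 0.05. With the replicate block 2 of these genes passed, both lower, against 5.64% of all genes in either direction and 2.32% lower. Ifngr2 had log2 CPM of 5.96, 5.93 and 5.86 in CD73+ Treg, against 6.23, 6.08 and 6.05 in CD73– Treg (with the replicate block adjusted p = 0.0452). Nlrc5, the transactivator of class I genes, had 8.77, 8.75 and 8.95 in CD73+ Treg, against 9.04, 8.92 and 9.12 in CD73– Treg (with the replicate block adjusted p = 0.0115). Both had a log2 fold change of −0.20. Tmem173 was higher, with log2 CPM of 6.42, 6.42 and 6.34 in CD73+ Treg, against 6.14, 6.11 and 6.03 in CD73– Treg, a log2 fold change of 0.30 (SE 0.06, adjusted p = 0.015). Its adjusted p lay between 0.0657 and 0.0699 without CD73+ library A, CD73+ library B or CD73– library D. In the same list Trex1 (log2 fold change 1.02) and Tlr7 (−0.24) passed with the replicate block, at adjusted p of 0.0492 and 0.0197, and not without it. Of the 74 further interferon-stimulated genes, Gbp3 was higher (0.52, adjusted p = 0.0248), and Gbp4 (−0.27, adjusted p = 0.0158) and Ddx60 (−0.25, adjusted p = 0.0416) were lower. Each of these 3 calls was lost when 1 of several libraries was left out. Gbp4 lost it without CD73+ library A or B or CD73– library D, Gbp3 without any library but CD73– library B, and Ddx60 without any but CD73+ library D. With the replicate block, 1 of the 74 was higher and 11 were lower, against 3.32% of all genes higher and 2.32% lower. The lower ones were Gbp4, Gbp9, Gbp6, Trim12a, Ddx60, Herc6, Slfn8, Slfn5, Iigp1, Parp11 and Tgtp2.

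Marker genes of other cells were measured beside these results. Their counts stand beside 26.4% of all genes higher and 25.7% lower in tdTomato– Treg against Tconv. Between CD73+ and CD73– Treg 1.79% of all genes were higher and 0.654% lower. The summed CPM of a myeloid and dendritic list (15 of 16 genes with values) was 69.8 to 87.4 in tdTomato– Treg, against 41.5 to 46.4 in Tconv, and 4 of its 9 tested genes were higher (Cd74, Cst3, Lyz2 and H2-Aa) and 1 lower (Itgam). Lyz2 lost its call without tdTomato– Treg library A, at an adjusted p of 0.0951, and H2-Aa without tdTomato– Treg library A or D or Tconv library B, at 0.0559 to 0.0999. A plasmacytoid dendritic list (7 of 10 genes with values, Bst2 among them) summed to 123 to 128 CPM in tdTomato– Treg, against 171 to 236 in Tconv. Of its 6 tested genes 4 were higher (Irf8, Runx2, Tcf4 and Ly6d) and Ccr9 was lower. Bst2 averaged 3.62 log2 CPM in tdTomato– Treg, against 3.79 in Tconv, and did not pass the threshold. The lower sum in tdTomato– Treg thus rests on Ccr9 and does not stand for the list as a whole. Ly6d lost its call without library A or B of either group, at an adjusted p of 0.0832 to 0.146. A B-cell list (7 of 8 genes with values) summed to 8.38 to 10.7 CPM in tdTomato– Treg, against 3.73 to 5.34 in Tconv. Between CD73+ and CD73– Treg the myeloid sums were 48.3 to 54.4 and 36.1 to 65.3, with no gene past the threshold, although with the replicate block Cst3 was higher (adjusted p = 0.0499). Of the markers in these lists that had values, none had zero counts in all libraries of a group. Xcr1 and Fcer1g stood at no more than 3 counts in all 3 CD73– Treg libraries. Markers without values were not assessed. A natural killer and innate-like T cell list summed to 22.6 to 24.3 CPM in CD73+ Treg, against 11.5 to 19.4 in CD73– Treg, with Nkg7 and Zbtb16 higher, and to 23 to 24.2 in tdTomato– Treg, against 12.8 to 16.6 in Tconv. A CD8 and double-positive thymocyte list summed to 41.6 to 46.4 CPM in CD73+ Treg, against 54.3, 108 and 45 in CD73– Treg, where library B stood apart. The part of these cells in the results was not tested.

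The letters were themselves a source of variation in the interferon response genes. Library B had the highest of the 3 levels of its group for 19 of the 38 genes in CD73+ Treg, 24 in CD73– Treg, 21 in tdTomato– Treg and 29 in Tconv. Over all genes tested, library B was highest for 36.2%, 33.8%, 31.4% and 38.5% in those groups. Library A was the lowest of its group for 25 genes in CD73+ Treg, 22 in CD73– Treg, 26 in tdTomato– Treg and 16 in Tconv, against 28.6%, 31.8%, 32.9% and 29.6% of all genes. Library A was the highest for 3, 3, 2 and 0 of the 38 genes in the same order of groups. The median deviation of library A from the group mean was −0.06 to −0.07 log2 units, close in size to the median difference between CD73+ and CD73– Treg. Taken within a letter, that median difference was −0.09, −0.08 and −0.07 for A, B and D, and for tdTomato– Treg minus Tconv it was −0.20, −0.20 and −0.11. A list of immediate early and heat shock genes was at its lowest summed CPM in library B and its highest in library D of every group, with 2690 and 4170 in CD73+ Treg, 2510 and 3900 in CD73– Treg, 3650 and 5500 in tdTomato– Treg, and 2700 and 4060 in Tconv. What the letters stand for is not given in the labels, and the part of handling in the result was not tested.

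**Figure D5:**
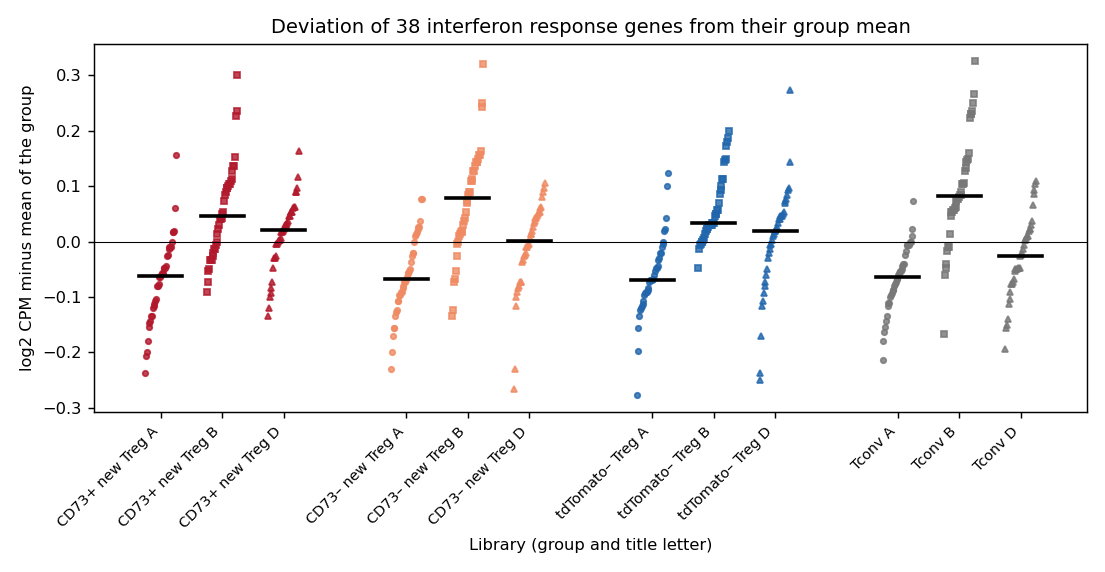
Deviation of each of the 38 interferon response genes from its group mean, in log2 CPM, for libraries A, B and D of each group, with each point a gene and a bar at the median. In all 4 groups the median of library A lies below 0 and that of library B above 0.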

How the data were processed

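RNA sequencing libraries of 4 sorted groups, 3 each, were analysed. The authors' tools, per the submitters' processing notes, include STAR, RSEM and limma, with the mm10 build; versions and settings are not given in the sources used here. Deposited log2 values come as 2 tables of 6 libraries, each filtered and normalised by the authors on its own. The values read as CPM with an offset of 0.5 count, since the genes without counts share the lowest value of a library. Each table also holds the authors' own fold changes (log2), adjusted and raw p-values, and a test statistic, a score that was not used.

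The present fits used limma 3.58.1 in R 4.3.3 on the deposited log2 values: 4 group means over all 12 libraries, empirical Bayes with trend, two-sided tests, and Benjamini-Hochberg adjustment over all genes tested in a comparison. A gene entered where 3 or more libraries reached a log2 CPM of 0. Errors are SD over libraries, or the SE of the fit. The script was tested on simulated data. Effective depth is the library size times the authors' scaling factor, and the level of 3 counts covers error from counting alone, because PCR copies of a molecule are not told apart.

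Whether the letters pair libraries was checked by correlating, over 9942 genes, how far each library lay from its group mean. Same-letter libraries of CD73+ and CD73– Treg correlated at 0.146, 0.266 and 0.222, so the replicate block is given there where it changes a call.

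The listed genes, the other gene lists and the tests were chosen with earlier results of these data known. Every listed gene past the threshold, the 4 transcription factors and the 2 highest and 2 lowest fold changes of each comparison have full values, and from each other list up to 4 genes per direction are named by smallest p. Positions are from GENCODE M21, which held 13195 of the 13207 IDs. Values of some single list members are left out of the text.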

Additional observations from a re-analysis of the deposited data

How the results depend on the processing

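The counts of listed genes past the threshold were recomputed without a filter, with a log2 CPM minimum of 1, with 1 added to the CPM, after quantile normalisation, with only the groups compared, without the trend, with the replicate block, without each library and without each letter, in limma. No fold change past the threshold changed sign under any of these. With the replicate block, 2 genes were lower between CD73+ and CD73– Treg, against 0 without it. Without the 4 libraries of letter A, 12 were lower in tdTomato– Treg, against 19 with it, while the share of all genes lower was 19%, against 25.7%. Dtx3l, Ifi47, Ifih1, Irgm1, Parp9, Trim30a, Xaf1 and, among the higher genes, Eif2ak2 lost their calls there. Eif2ak2, Xaf1 and Parp14 (adjusted p = 0.352) lost theirs without letter D, Irgm1 and Trim30a without letter B, Dtx3l, Irgm1, Trim30a and Parp14 without the trend, and Trim30a with only the groups compared. The median between CD73+ and CD73– Treg was −0.05 after quantile normalisation and −0.05 without letter A. Leaving out each library in turn gave 8 to 9 higher and 15 to 19 lower genes in tdTomato– Treg with medians of −0.22 to −0.14, and 0 and 0 genes between CD73+ and CD73– Treg with medians of −0.09 to −0.05. Of 76 single-gene values, 2 for each of the 38 genes, the alternatives gave 1148 values with the same sign and side of the threshold, 32 that lost it, 10 that gained it and 26 that changed sign. The gains beside the 2 in CD73+ Treg were in tdTomato– Treg: Dhx58 after quantile normalisation, with only the groups compared and with the block, Isg20 with only the groups compared, with the block and without tdTomato– Treg library D, Ifi35 with the block and Irf9 after quantile normalisation. The sign changes were of values near 0 that did not pass the threshold. Between CD73+ and CD73– Treg, leaving out single libraries turned the fold change of Bst2 (−0.04 to 0.20), Eif2ak2 (−0.13 to 0.01), Gbp2 (−0.09 to 0.09), Gbp7 (−0.11 to 0.08), Ifi47 (−0.03 to 0.06), Ifit1 (−0.27 to 0.01), Isg20 (−0.02 to 0.16), Parp9 (−0.01 to 0.10) and Rtp4 (−0.11 to 0.02), and leaving out a letter turned Bst2 (−0.01), Gbp2 (−0.01) and Parp9 (−0.01) without A, Gbp7 (−0.04) and Rtp4 (0.01) without B, and Dhx58 (−0.03) without D. In tdTomato– Treg against Tconv, Gbp2 (−0.18 to 0.04) and Nmi (−0.16 to 0.05) turned without Tconv library B, and both (0.03) without letter B. In tdTomato– Treg against Tconv the letters were not treated as pairs, since same-letter libraries correlated at 0.117, 0.114 and 0.054, and the replicate block gave 11 higher and 20 lower genes, against 27.9% and 27.8% of all genes. Over all genes, the count past the threshold between CD73+ and CD73– Treg was 273, but 146 with only these groups, 107 without the trend, 630 with the replicate block, 26 without letter A, 46 without letter D and 95 to 360 without single libraries, so the background shares there carry that range.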
